A study of Mus musculus with 13 samples.

Results

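The 10 genes described here encode the working parts of the blood-brain barrier in endothelial cells. They were picked out by gene symbol and are Cldn5, Ocln, Tjp1, Abcb1a, Slc2a1, Mfsd2a, Slco1c1, Pecam1, Cdh5 and Flt1. They make up 10 of the 55401 genes in the deposited annotation, and all 10 passed the filter on low counts that left 14985 genes for testing. Bulk RNA-seq was done on a frozen brain hemisphere of male wild-type C57BL/6J mice, which the labels give as 6 to 8 weeks old and the paper as older. In the control group (CTL, n = 5) mice ate control diet until week 6. In the cuprizone group (CPZ, n = 4) they ate 0.3% cuprizone, a copper chelator that kills mature oligodendrocytes and strips myelin, until collection at week 4. In the recovery group (RCV, n = 4) the same 4 weeks of cuprizone were followed by 2 weeks of control diet, with collection at week 6. No engineered allele and no treatment other than the diet is described for the 3 groups. However, the RCV titles begin with "Veh", which is not explained. If only RCV mice received a vehicle, its effect could not be told apart from that of the diet. CPZ brains were taken 2 weeks earlier than the others, so that in the comparisons with CPZ the diet and the time of collection cannot be told apart, whereas RCV and CTL were taken at the same week.

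The capillaries of the brain are lined by endothelial cells that are sealed to each other by tight junctions. Claudin 5 (Cldn5) is the main strand-forming claudin of these junctions, occludin (Ocln) is another membrane protein in them, and ZO-1 (Tjp1) ties them to actin inside the cell. Because the junctions block passage between cells, what enters the brain must cross through them, and efflux pumps and carriers set what does. P-glycoprotein (Abcb1a) pumps drugs back into the blood, GLUT1 (Slc2a1) brings in glucose, Mfsd2a carries lysophosphatidylcholine with docosahexaenoic acid and restrains transcytosis, and Slco1c1 carries thyroxine. Pecam1 and VE-cadherin (Cdh5) join endothelial cells throughout the body, and Flt1 is a receptor for VEGF. Several of these genes are also used by other cells of the brain, above all Tjp1, and also Slc2a1 and Slco1c1, which astrocytes or the choroid plexus express. The paper's ligand-receptor analyses also predict Flt1 as a receptor on microglia in CPZ. The part of microglia in the Flt1 values was not tested.

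Over the 3 comparisons 1 of the 10 barrier genes passed the test, once, and this call was lost in 12 of 22 alternative analyses. Cldn5 was lower in RCV than in CTL, at 20.5 ± 2.67 CPM (SD, n = 4) against 32.9 ± 4.86 CPM (SD, n = 5), a fall of 37.4%, in a comparison where 0.374% of all genes tested passed. CPM here are counts relative to the library total, with the TMM method correcting that total. None of the other 9 genes passed the test in any comparison with edgeR's quasi-likelihood test, and none of the 10 passed between CPZ and CTL, where 10.2% of all genes tested did. Tjp1 had all 4 CPZ libraries above all CTL and RCV libraries, but it did not pass.

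Since Cldn5 and Tjp1 gave the values furthest apart within the tight junction, the 250 bases before the start of each are shown first, read 5′ to 3′ on the strand of the gene from RefSeq (GRCm38.p6). For Cldn5, a gene of 1 exon at chr16:18776847-18778262 on the plus strand (GRCm38, GENCODE M21), the stretch is chr16:18776597-18776846. For Ocln, at chr13:100496507-100552718 on the minus strand, it is chr13:100552719-100552968. For Tjp1, at chr7:65296165-65527781 on the minus strand, the RefSeq start lies inside the span that GENCODE gives, and the stretch is chr7:65371245-65371494. No annotated exon overlaps these 3 stretches. RefSeq holds another start of Ocln, whose stretch, chr13:100552499-100552748, overlaps an Ocln exon and is not shown. Capitals mark matches, on either strand, to 4 short cores searched for: GGAA of ETS factors, CTTTG of TCF/LEF, ACAAT of SOX and TGTTT of forkhead factors. Neighbouring matches may share bases.
Cldn5: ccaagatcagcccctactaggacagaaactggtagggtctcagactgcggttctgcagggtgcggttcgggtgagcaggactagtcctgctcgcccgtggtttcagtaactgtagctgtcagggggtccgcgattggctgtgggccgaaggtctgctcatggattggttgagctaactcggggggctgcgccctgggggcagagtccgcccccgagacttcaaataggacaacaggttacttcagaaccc
Ocln: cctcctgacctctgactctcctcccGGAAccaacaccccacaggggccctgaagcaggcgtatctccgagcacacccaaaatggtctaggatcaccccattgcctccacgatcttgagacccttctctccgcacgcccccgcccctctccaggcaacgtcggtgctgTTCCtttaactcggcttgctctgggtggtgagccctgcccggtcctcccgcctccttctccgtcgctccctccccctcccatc
Tjp1: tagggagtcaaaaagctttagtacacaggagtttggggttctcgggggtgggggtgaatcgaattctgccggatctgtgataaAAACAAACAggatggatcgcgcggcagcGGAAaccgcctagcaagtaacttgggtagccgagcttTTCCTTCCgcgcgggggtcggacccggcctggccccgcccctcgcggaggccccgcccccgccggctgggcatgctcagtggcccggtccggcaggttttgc
The Cldn5 stretch held no match to any of the cores. The Ocln stretch shown held 2 matches to GGAA, and that of its other start 1. The Tjp1 stretch held 3 to GGAA and 2 to TGTTT, the latter sharing a base. Such letters are common: of 32817 RefSeq promoters of this length, 93.4% held GGAA, 48.6% CTTTG, 27.7% ACAAT and 46.4% TGTTT. All 3 stretches were rich in G and C, at 59.6% for Cldn5, 64.0% for Ocln and 63.2% for Tjp1. A match is a string of letters and not a bound site, and the absence of one says only that these letters are not in this window.

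The libraries held 5422264 to 7486387 estimated counts in CTL, 6743067 to 8197289 in CPZ and 4605100 to 6990717 in RCV, with 3.76% to 5.07% of the counts from mitochondrial genes. The labels and the paper's methods give 4 CTL, 3 CPZ and 3 RCV mice, while the table and a figure legend of the paper give 5, 4 and 4 samples, and the RCV titles begin with "Veh", which is not explained, although their treatment field names the recovery. Endothelial RNA was present in every library, with a summed 211.2 to 288.3 CPM over 18 other endothelial genes. Markers of other cells differed between the groups. All 12 microglial markers were higher in CPZ than in CTL (summed 1360 to 2840 CPM against 391.3 to 466.4, and 595.3 to 829.4 in RCV), and all 8 markers of mature oligodendrocytes were lower (1086 to 1783 CPM against 2448 to 4633, and 3324 to 5632 in RCV). Markers of the choroid plexus, whose epithelium also makes junctions and transporters, summed to 21.8 and 17.6 CPM in RCV 3 and RCV 4 and to 428.9 to 2813 CPM in the other 11 libraries. Red blood cell markers summed to 181.2 to 244.2 CPM in CTL, 146.5 to 219.4 in CPZ and 220.6 to 315.7 in RCV. In a whole hemisphere fewer endothelial cells and less RNA per cell cannot be told apart, and the part of the changed cell makeup in the results on barrier genes was not tested beyond the scaling and choroid plexus alternatives given with them.

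Levels of different genes were set side by side in TPM, which divides by transcript length. In CTL, Slc2a1 was the most abundant at 61.9 ± 5.50 TPM (SD, n = 5), followed by Tjp1 at 59.2 ± 6.46, Cldn5 at 53.3 ± 8.22 and Slco1c1 at 42.9 ± 5.23 TPM. Flt1 stood at 29.3 ± 2.16 TPM, below all 5 Slco1c1 values. Abcb1a at 17.1 ± 0.663, Pecam1 at 14.8 ± 2.44 and Mfsd2a at 13.9 ± 2.89 TPM formed the next group, and Cdh5 at 8.89 ± 0.792 and Ocln at 7.52 ± 0.952 TPM were the lowest. In this order the libraries of neighbouring genes overlapped except between Slco1c1 and Flt1, Flt1 and Abcb1a, and Mfsd2a and Cdh5. The ranks of neighbours within each of the blocks so formed were not resolved. In the first block, all Slc2a1 and Tjp1 values were still above all Slco1c1 values.

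**Figure D1:**
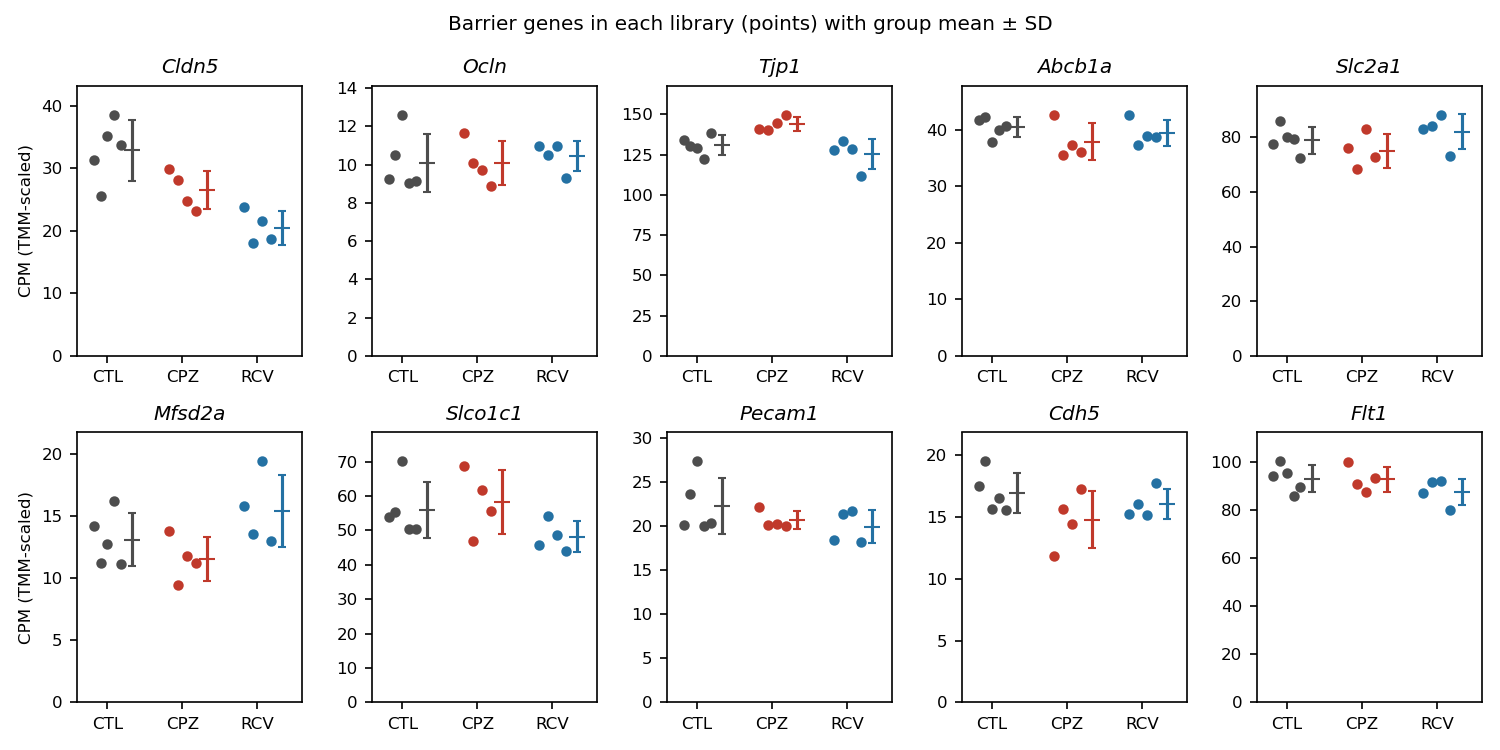
TMM-scaled CPM (vertical axes, each from 0) of the 10 barrier genes in each of the 5 CTL, 4 CPZ and 4 RCV libraries (points, in order of replicate number), with the group mean and SD as the bar beside them. The RCV points of Cldn5 lie between 17.98 and 23.8 CPM, below all CTL points, and the CPZ points of Tjp1 lie above all others of that gene, while the groups of the other genes overlap.

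Cldn5 was measured at 31.4, 25.5, 35.2, 38.5 and 33.7 CPM in the CTL libraries, at 30.0, 28.1, 24.7 and 23.2 CPM in CPZ and at 23.8, 17.98, 21.6 and 18.7 CPM in RCV. These values rest on 86 to 252 counts per library. Every RCV library was below every CTL library, the nearest pair being RCV 1 at 23.8 and CTL 2 at 25.5 CPM, and the CPZ libraries lay across the gap between them. Between RCV and CTL the log2 fold change was −0.68 (SE 0.12, 95% interval −0.94 to −0.41, adjusted p = 0.0263 with edgeR's quasi-likelihood test and Benjamini-Hochberg adjustment over all genes). Between CPZ and CTL it was −0.31 (SE 0.12, interval −0.56 to −0.06, adjusted p = 0.118), and between CPZ and RCV it was 0.37 (SE 0.13, interval 0.09 to 0.64, adjusted p = 0.118), neither of which passed. These 3 comparisons share their groups, so that the values are not independent of each other.

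The call for Cldn5 stood close to its threshold, whereas its size changed little. The fold change on the log2 scale ran from −0.70 to −0.60 over 13 other ways of processing and from −0.76 to −0.61 when each library was left out. The adjusted p was 0.0561 without CTL 1, 0.0733 without CTL 3, 0.0658 without CTL 4, 0.0645 without CTL 5, 0.137 without RCV 2 and 0.0862 without RCV 4, but 0.0111, 0.0297 and 0.0454 without CTL 2, RCV 1 and RCV 3. It was also lost with limma-voom (0.0834), with limma on log2(TPM + 1) with no filter on TPM (0.0948), with a choroid plexus score as covariate (log2 fold change −0.67, 0.0922), with the replicate number as a block (−0.67, 0.101), with libraries scaled to other endothelial genes (−0.60, 0.0877), and without both RCV 3 and RCV 4, an alternative added after their low choroid plexus levels were seen (−0.65, 0.2). With DESeq2 the adjusted p was 0.000518. Without CTL 2, the CTL library with the lowest Cldn5, the difference between CPZ and CTL reached −0.39 with an adjusted p of 0.0303.

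**Figure D2:**
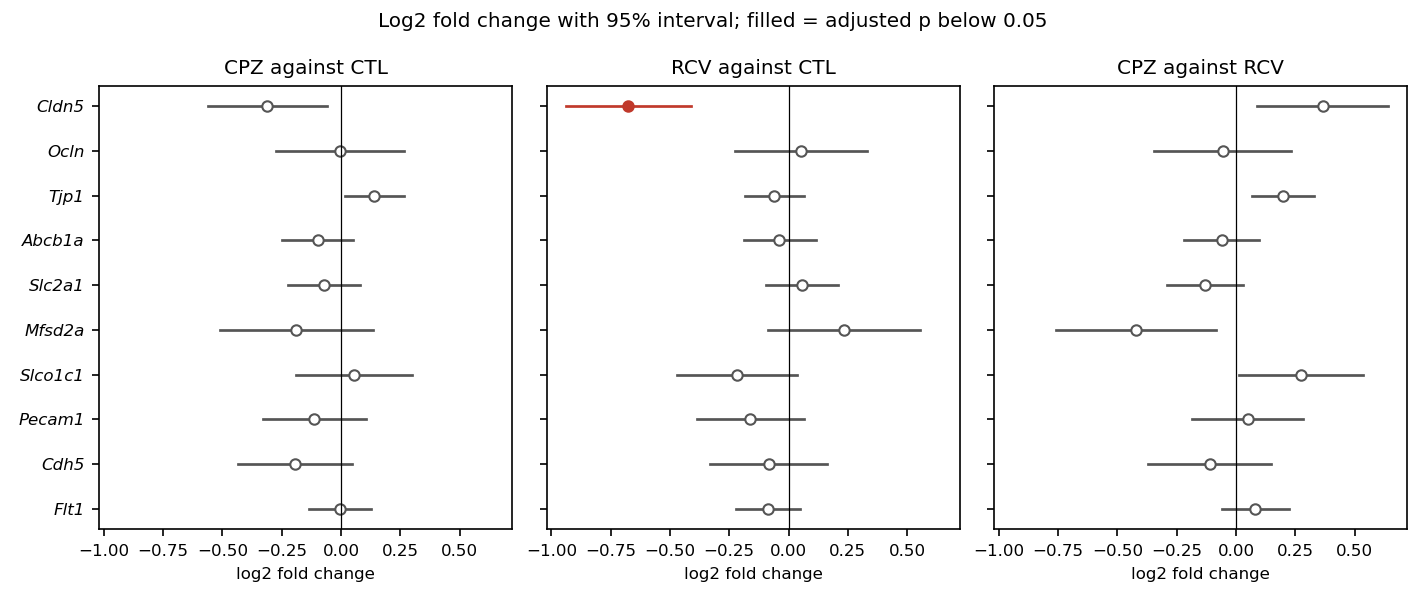
Log2 fold change of the 10 barrier genes (points) with 95% intervals (lines) in the 3 comparisons, from one edgeR fit of all 13 libraries. The filled point, Cldn5 in RCV against CTL at −0.68, is the one with an adjusted p below 0.05. Without passing after adjustment, 4 genes have intervals clear of 0 between CPZ and RCV, and 2 between CPZ and CTL. Of all genes, 19.1% and 22.1% had an unadjusted p under 0.05 in these comparisons.

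Ocln, next to Cldn5 in the junction strand, ran from 9.02 to 12.6 CPM in CTL, 8.91 to 11.7 in CPZ and 9.32 to 10.99 in RCV, and its groups overlapped throughout. Its log2 fold changes were −0.004 between CPZ and CTL (interval −0.28 to 0.27) and 0.05 between RCV and CTL (−0.23 to 0.33), the former changing sign with the processing. Tjp1, the scaffold, was measured at 133.8, 130.4, 128.9, 122.2 and 138.5 CPM in CTL, 141.0, 140.5, 144.8 and 149.6 CPM in CPZ, and 128.1, 133.3, 128.2 and 111.5 CPM in RCV. All CPZ values exceeded all CTL and RCV values, the nearest pair being CPZ 2 at 140.5 and CTL 5 at 138.5 CPM. Among all genes 8.25% were higher in every CPZ than in every CTL library, and 8.26% higher in every CPZ than in every RCV library (4.86% and 4.93% were lower in this way, and 0 of the 10). The log2 fold change of Tjp1 was 0.14 between CPZ and CTL (SE 0.06, adjusted p = 0.164), 0.20 between CPZ and RCV (SE 0.06, interval 0.07 to 0.33, adjusted p = 0.0668) and −0.06 (adjusted p = 0.977) for RCV against CTL. Between CPZ and RCV it passed with DESeq2 (0.20, adjusted p = 0.0332) and when RCV 2 was left out (0.23, adjusted p = 0.0464).

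The pumps and carriers did not pass in any comparison. Mfsd2a was measured at 14.3, 11.3, 12.8, 16.2 and 11.2 CPM in CTL, 13.8, 9.48, 11.8 and 11.2 CPM in CPZ and 15.8, 13.6, 19.4 and 13.01 CPM in RCV. The CPZ values overlapped those of both other groups, 1 of the 4 lying within the RCV range, and the log2 fold change between CPZ and RCV was −0.42 (SE 0.16, interval −0.76 to −0.08, adjusted p = 0.146). Slco1c1 was measured at 53.8, 55.5, 70.1, 50.5 and 50.4 CPM in CTL, 68.9, 47.0, 61.9 and 55.7 CPM in CPZ and 45.7, 54.3, 48.7 and 44.0 CPM in RCV. Its groups overlapped, with log2 fold changes of 0.27 between CPZ and RCV (interval 0.01 to 0.53, adjusted p = 0.238) and −0.22 between RCV and CTL (interval −0.47 to 0.03, adjusted p = 0.859). The highest Slco1c1 values in CTL and CPZ, in CTL 3 and CPZ 1, came from the libraries with the most choroid plexus RNA (2813 and 2407 CPM). With the choroid plexus score in the fit the Slco1c1 difference between CPZ and RCV was 0.06. The score was lowest in RCV 3 and RCV 4, so this fit cannot fully separate it from the group. Beyond this fit, the part of the choroid plexus in the Slco1c1 values was not tested.

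Slc2a1 ran from 72.3 to 85.8 CPM in CTL, 68.4 to 83.1 in CPZ and 73.1 to 88.1 in RCV, with log2 fold changes of −0.07 between CPZ and CTL and 0.06 between RCV and CTL. Abcb1a ran from 37.8 to 42.3 CPM in CTL, 35.5 to 42.6 in CPZ and 37.4 to 42.7 in RCV, with log2 fold changes of −0.10 and −0.04. Reads of Abcb1a can be shared with Abcb1b, a related copy. The estimated counts of Abcb1a were not whole in any of the 13 libraries, unlike those of the other 9 genes. Which gene its reads were shared with was not tested. Abcb1b itself was low, at 3.56 ± 0.707 CPM in CTL (SD, n = 5), and was higher in CPZ at 7.60 ± 2.40 CPM (SD, n = 4), with a log2 fold change of 1.10 (SE 0.25, adjusted p = 0.00688), so how counts were split between the copies is uncertain. Slc2a1 and Abcb1a also share 105 and 553 exonic bases with Gm12868 and Gm42686 on the opposite strand, and whether the counting used strand is not given in the sources used here.

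The genes of endothelial adhesion and growth factor reception did not pass either. Pecam1 was measured at 20.1, 23.7, 27.4, 20.0 and 20.4 CPM in CTL, 22.2, 20.2, 20.3 and 20.0 CPM in CPZ and 18.5, 21.4, 21.8 and 18.2 CPM in RCV, groups that overlapped. Cdh5 was measured at 17.5, 19.5, 15.7, 16.5 and 15.6 CPM in CTL, 11.8, 15.7, 14.4 and 17.3 CPM in CPZ and 15.3, 16.0, 15.2 and 17.8 CPM in RCV. The lowest Cdh5 value was that of CPZ 1, and the log2 fold change between CPZ and CTL was −0.20 (SE 0.11, adjusted p = 0.353). Flt1 ran from 85.8 to 100.1 CPM in CTL, 87.3 to 99.7 in CPZ and 80.0 to 91.8 in RCV, with log2 fold changes of −0.01 and −0.09 against CTL.

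Counted together, 0 of the 10 genes passed between CPZ and CTL, beside 10.2% of the 14985 genes tested (7.66% higher and 2.5% lower in CPZ). At an unadjusted p under 0.05 there were 2, Cldn5 and Tjp1, beside 22.1% of all genes. The median log2 fold change of the 10 was −0.09 and that of all genes −0.02. For the 9 genes other than Cldn5, the lowest end of any 95% interval was −29.8% (Mfsd2a) and the highest 23% (Slco1c1), and intervals were narrower for Flt1 (−9.09% to 9.15%) and Abcb1a (−15.7% to 3.59%). Between CPZ and RCV, again 0 of 10 passed, beside 7.01% of all genes (5.13% higher and 1.88% lower in CPZ), and 4 had an unadjusted p under 0.05 (Cldn5, Tjp1, Mfsd2a and Slco1c1) beside 19.1%. The median there was 0.00 for the 10 and −0.01 for all genes.

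Between RCV and CTL, 1 of the 10 genes passed, Cldn5, beside 0.374% of all genes, and it was also the 1 with an unadjusted p under 0.05, beside 6.2%. Of the 56 genes called in this comparison 54 were higher in RCV (0.36% of those tested) and 2 were lower (0.0133%). The other fall was Wwc1, which encodes a scaffold protein of the Hippo pathway and is named because there were so few (log2 fold change −0.28, adjusted p = 0.0407). Among all genes Cldn5 ranked 33 by unadjusted p and 193 by the size of the decrease. Its 4 RCV libraries did not overlap the 5 CTL libraries, a pattern in this direction that 0.687% of all genes had. Sox18, Rgs5 and Cavin1 of the vascular lists below, which did not pass, were also lower in every RCV than in every CTL library. Of the 10, 0 were higher in every RCV library, beside 2.21% of all genes. The median over the 10 genes was −0.07, and over the other 9 the lowest end of any 95% interval was −27.7% (Slco1c1) and the highest 46.8% (Mfsd2a). Cldn5 is short and rich in G and C, with 1416 exonic bases of which 60.5% are G or C. Of 1580 genes tested with 1000 to 2000 bases, whose median log2 fold change was −0.03, 37 were at or below Cldn5, and of the 276 of these within 3 percentage points of its GC content 7 were.

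**Figure D3:**
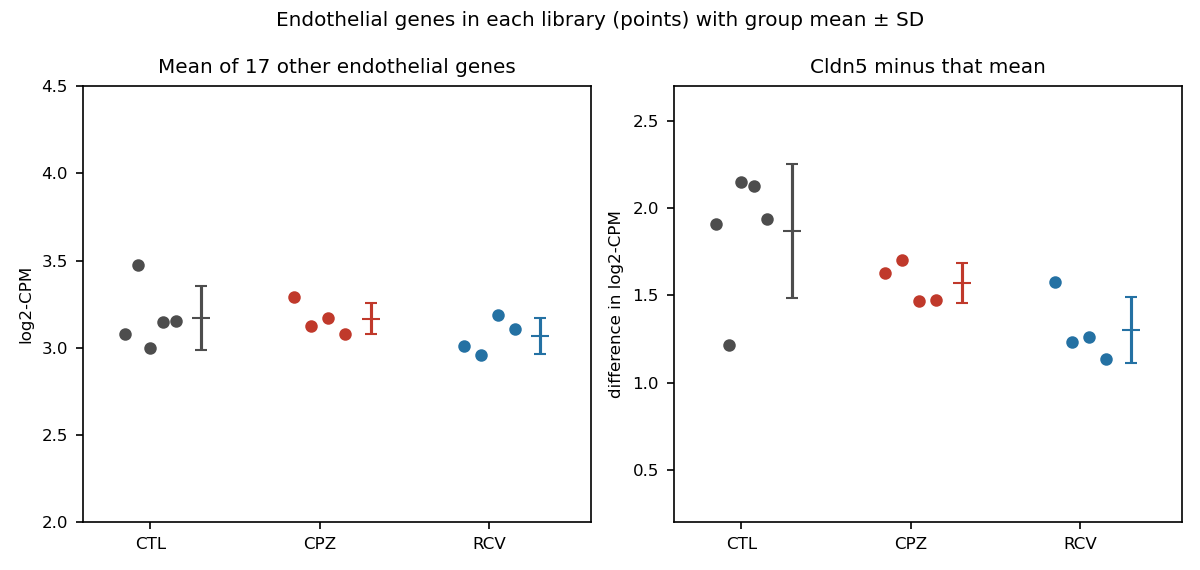
Left, mean log2-CPM over 17 endothelial genes outside the 10 in each library (points) with group mean and SD, and right, the log2-CPM of Cldn5 minus that mean. The left panel shows overlapping groups near 3.1, and in the right panel the RCV points lie between 1.14 and 1.58, below 4 of the 5 CTL points, while CTL 2 at 1.21 lies among them.

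The 17 further endothelial genes allowed Cldn5 to be set against endothelial RNA as a whole. Their mean log2-CPM was 3.17 ± 0.182 in CTL (SD, n = 5), 3.17 ± 0.0908 in CPZ and 3.07 ± 0.103 in RCV (SD, n = 4 each), ranges that overlapped. Cldn5 stood above this mean by 1.91, 1.21, 2.15, 2.13 and 1.94 in the CTL libraries, by 1.63, 1.70, 1.47 and 1.48 in CPZ and by 1.58, 1.24, 1.26 and 1.14 in RCV. The groups did overlap here, because CTL 2, with the highest endothelial mean (3.48) and the lowest Cldn5 of its group, lay among the RCV libraries. With libraries scaled to these endothelial genes in place of TMM, the log2 fold change of Cldn5 between RCV and CTL was −0.60 with an adjusted p of 0.0877. Against the mean of the other 9 barrier genes, Cldn5 stood at −0.15 ± 0.255 in CTL, −0.41 ± 0.163 in CPZ and −0.79 ± 0.172 in RCV.

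None of the 17 endothelial genes tested of 18 passed between RCV and CTL, beside 0.374% of all genes. Their median log2 fold change there was −0.11. The one with the lowest p there was Sox18, a transcription factor of endothelial cells (−0.42, adjusted p = 0.748). Between CPZ and CTL 1 of 17 was higher, Ecscr, an endothelial membrane protein, at 3.18 ± 0.568 CPM (SD, n = 4) against 1.75 ± 0.489 (SD, n = 5), with a log2 fold change of 0.86 and an adjusted p of 0.0315. This call was lost in 5 of 9 fits with 1 library left out (CTL 3, CTL 4, CPZ 1, CPZ 2 or CPZ 3, adjusted p up to 0.117). The median of the list in this comparison was −0.08, and 7.66% of all genes tested were higher in it.

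Partners of the 10 genes at the junctions were tested for 14 of 17. Between CPZ and CTL 1 was higher, F11r, the junctional adhesion molecule A, at 24.4 ± 7.60 CPM in CPZ (SD, n = 4) against 9.36 ± 2.41 in CTL (SD, n = 5) (log2 fold change 1.38, adjusted p = 0.000771), and 0 were lower. It was higher in CPZ than in RCV too (1.23, adjusted p = 0.00635), as was Ctnnd1, the catenin p120 that binds cadherins (0.22, adjusted p = 0.0437), whose call was lost in 7 of 8 fits with 1 library left out, all but that without CPZ 3 (adjusted p up to 0.129). In RCV against CTL 0 of 14 passed, beside 0.374% of all genes, and Magi1, a scaffold, had the lowest p (−0.14, adjusted p = 0.876). Among all genes 7.66% were higher in CPZ than in CTL and 5.13% higher than in RCV. F11r is also made by myeloid cells, and the part of the raised microglial markers in its value was not tested.

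Other transporters of the barrier formed a list of 17, all tested. Of these 5 were higher and 0 lower in CPZ than in CTL, with a list median of 0.09. Of all genes tested 7.66% were higher in this comparison and 5.13% higher in CPZ than in RCV. The share called between RCV and CTL was 0.374%. All 5 are named, 3 of them outside the naming rule and after their values were seen. Apart from Abcb1b, they were the amino acid carrier pair Slc7a5 (110.2 ± 17.2 CPM against 55.9 ± 2.82, log2 fold change 0.98, adjusted p = 2.61e-06) and Slc3a2 (0.84, adjusted p = 1.07e-05), the arginine carrier Slc7a1 (0.36) and the lactate carrier Slc16a1 (0.33, adjusted p = 0.0226). The amino acid carriers and Abcb1b were higher in CPZ than in RCV as well, with log2 fold changes of 0.84 for Slc7a5, 0.76 for Slc3a2, 0.50 for Slc7a1 and 1.15 for Abcb1b. Between RCV and CTL 0 of 17 passed, Slc16a4 having the lowest p (−0.52, adjusted p = 0.851). Slc16a1 lost its call without CTL 2, CPZ 1 or CPZ 4 (adjusted p up to 0.0792), and Abcb1b that against RCV without CPZ 1, CPZ 2 or RCV 1 (up to 0.0631). These carriers are used by many cell types, and the part that the endothelium had in them was not tested.

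**Figure D4:**
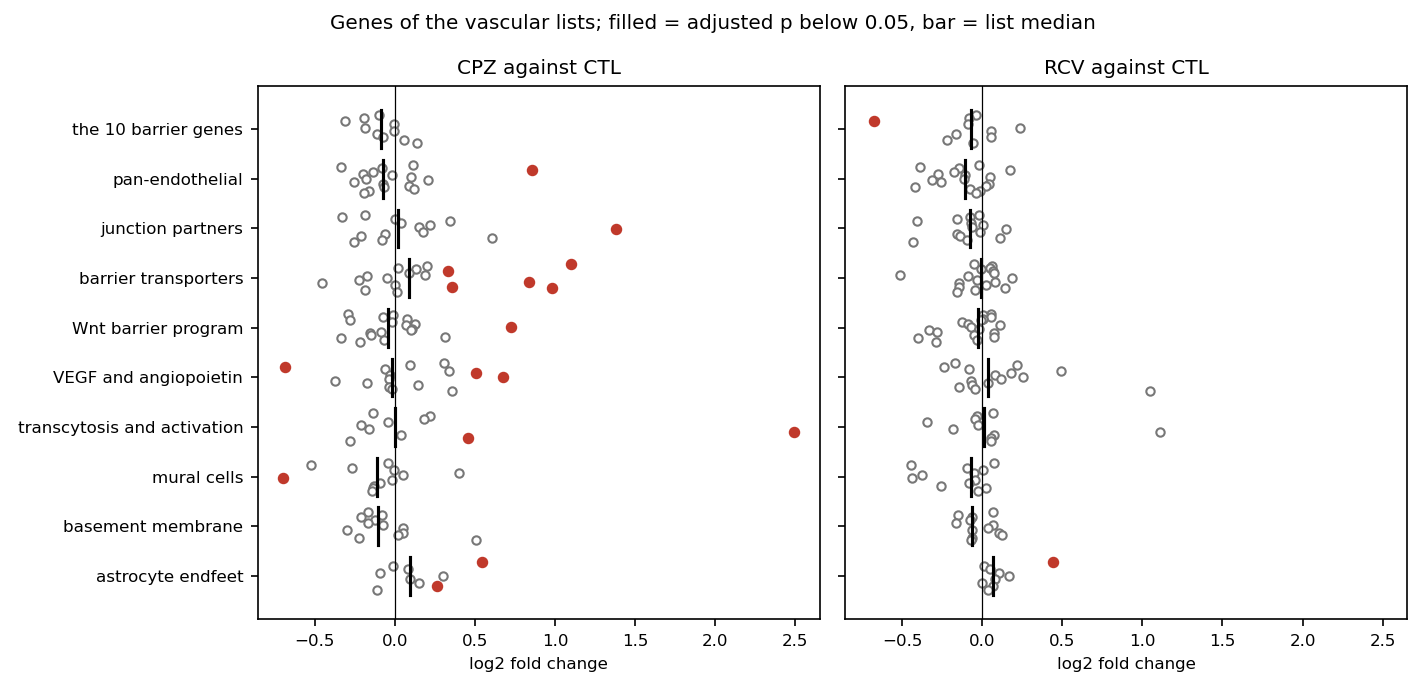
Log2 fold change of each gene (points) of the 10 barrier genes and 9 further vascular lists between CPZ and CTL (left) and between RCV and CTL (right), with filled points for an adjusted p below 0.05 and a bar at the list median. The barrier genes stay near 0 in the left panel while Icam1, F11r and Abcb1b exceed 1, and in the right panel Cldn5 and Aqp4 are the filled points.

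The pathways that build and maintain the barrier were described by 2 lists. Of all genes, 10.2% were called between CPZ and CTL, 7.01% between CPZ and RCV and 0.374% between RCV and CTL. Of 18 genes of the Wnt program that induces barrier genes in brain endothelium, 1 was higher in CPZ than in CTL, the coreceptor Lrp5 (0.73, adjusted p = 0.000422), and it was higher than in RCV too (0.79, adjusted p = 0.00109). Between RCV and CTL 0 of 18 passed. The ligand Wnt7a had the lowest p there (−0.40, adjusted p = 0.344). Of 15 genes tested of the VEGF and angiopoietin systems, 2 were higher in CPZ than in CTL, the coreceptor Nrp1 (0.68, adjusted p = 0.00881) and the hypoxia factor Hif1a (0.51, adjusted p = 0.00118), and 1 was lower, the peptide Apln (−0.69, adjusted p = 0.0144, and 0.0512 without CPZ 1). Between CPZ and RCV, and between RCV and CTL, 0 of the 15 passed, Hif1a (0.33, adjusted p = 0.0545) and Vegfd (1.05, adjusted p = 0.808) having the lowest p.

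Genes of transcytosis and endothelial activation were tested for 10 of 13. The shares of all genes higher in CPZ were 7.66% against CTL and 5.13% against RCV. The leukocyte adhesion molecules Icam1 (9.59 ± 3.90 CPM in CPZ against 1.68 ± 0.911 in CTL, log2 fold change 2.49, adjusted p = 8.31e-05) and Vcam1 (37.0 ± 2.22 against 27.0 ± 2.72 CPM, 0.46, adjusted p = 0.000908) were higher in CPZ, and both were higher than in RCV (1.38 and 0.40), Icam1 losing that call without CPZ 1, CPZ 2 or RCV 1 (adjusted p up to 0.0658). Plvap, which forms the diaphragms of leaky vessels, did not pass between CPZ and CTL, at 7.04 ± 0.811 CPM in CTL, 7.21 ± 1.79 in CPZ and 7.39 ± 0.528 in RCV, and is named after its values were seen. Between RCV and CTL 0 of 10 passed, beside 0.374% of all genes. Cavin1, a coat protein of caveolae, had the lowest p there (−0.35, adjusted p = 0.336). Icam1 did not pass there either, but its RCV libraries, at 3.25 to 4.37 CPM, were above all CTL libraries (0.917 to 3.15 CPM). Of all genes 2.21% were higher in this way. Icam1 is also a gene of microglia, whose markers were higher in the CPZ libraries, and their part in its value was not tested.

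The cells and matrix around the endothelium were described by 3 further lists. The shares over all genes tested were 7.66% higher and 2.5% lower in CPZ than in CTL. They were 5.13% higher and 1.88% lower in CPZ than in RCV, and 0.374% called between RCV and CTL. Of 12 mural cell genes tested 1 was lower in CPZ than in CTL, the smooth muscle myosin Myh11 (11.7 ± 1.68 against 18.9 ± 5.39 CPM, −0.70, adjusted p = 0.0442), and 0 passed in the other comparisons, where the pericyte gene Rgs5 had the lowest p in both (−0.26 between RCV and CTL, adjusted p = 0.142). Of 12 basement membrane genes 0 passed against CTL, and Agrn, the proteoglycan agrin, was lower in CPZ than in RCV (−0.24, adjusted p = 0.0192). Of 9 genes of astrocyte endfeet 2 were higher in CPZ than in CTL, the water channel Aqp4 (173.2 ± 15.3 against 118.8 ± 11.5 CPM, 0.55, adjusted p = 0.000363) and Mlc1 (0.26, adjusted p = 0.0472), and 0 passed between CPZ and RCV. Aqp4 was also higher in RCV than in CTL, at 161.3 ± 16.5 CPM (SD, n = 4), with a log2 fold change of 0.44 and an adjusted p of 0.0384. With 1 library left out, calls were lost in 7 of 9 fits for Myh11 (all but CTL 3 and CTL 5, adjusted p up to 0.125), in 8 of 9 for Mlc1 (all but CTL 4, up to 0.149), in 8 of 9 for Aqp4 between RCV and CTL (all but RCV 4, up to 0.171) and in 5 of 8 for Agrn (CPZ 1, CPZ 2, CPZ 3, RCV 1 or RCV 3, up to 0.0786). Aqp4 was the 1 gene of the 9 vascular lists called between RCV and CTL, and 4 of 8 astrocyte markers were higher in CPZ than in CTL (summed 4722 to 5754 CPM in CPZ, 4062 to 4491 in CTL and 4737 to 5390 in RCV).

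The profile of the 10 genes over the 13 libraries was summarised as the mean of their scaled log2-CPM values. The 5 genes with the most similar profile were Mrps7 (Pearson r 0.89), Bckdha (0.85), 4833445I07Rik (0.84), Htatsf1 (0.83) and H2bu2 (0.81), and with the group means removed r ran from 0.79 to 0.88. These are descriptions over libraries that share groups and depths, and none of these genes is in the lists above. With the other 9, the profile of Cldn5 had r between −0.25 (Slc2a1) and 0.36 (Slco1c1), and with the group means removed between −0.72 (Cdh5) and 0.54 (Mfsd2a).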

How the data were processed

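Estimated counts per gene and TPM values of 13 libraries were deposited by the authors with a table of gene names and lengths. The submitters' processing notes name STAR, RSEM and mm10, with no roles or versions, which the sources used here do not give, and the libraries were made with the Kapa mRNA HyperPrep kit and read as paired 50-base ends. The deposited estimated counts are not scaled to library size, were rounded here, and had 92 spike-in sequences left out. The deposited TPM values were scaled by the authors to gene length and library size and served for the order of levels and as alternatives. Estimated counts spread reads that match several genes, which can affect related copies such as Abcb1a and Abcb1b. Positions came from GENCODE M21 (GRCm38), which matched 54349 of 55401 gene identifiers, and promoters from RefSeq, which held 8 of the 10 genes.

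Groups came from the sample labels, and no label says whether the libraries of a group came from separate cages or batches, so that p-values measure the spread between these samples. With edgeR 4.0.16, genes too low in counts for their group were removed by filterByExpr, TMM factors were computed, and a single robust quasi-likelihood model of the 13 libraries gave an F test for each difference between group means. Standard errors were the log2 fold change divided by the root of F, and intervals were 95%. Benjamini-Hochberg adjustment ran over 14985 genes with a threshold of 0.05. Log2-CPM used a prior count of 2. Alternatives were DESeq2 1.42.0 size factors and Wald test, limma 3.58.1 (voom, or log2 TPM after adding 1 or 0.1, keeping genes that reach a TPM of 1 in 4 libraries or all genes), no count filter, at least 10 counts in every library, only the compared groups, a replicate block, scaling to endothelial genes, a choroid plexus covariate and each library left out. Leaving out single libraries for the called genes of the lists was added after the calls were seen. The software was R 4.3.3 and Python 3.11.15 with matplotlib 3.10.9.

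The text names the 10 genes, up to 2 called rises and falls per list and comparison (or the gene with the lowest p where none was called) and the 5 genes with mean log2-CPM of at least 1 most correlated with the 10. The lists were further endothelial genes, junction partners, barrier transporters, Wnt, VEGF and angiopoietin, transcytosis and activation, mural cells, basement membrane, endfeet, microglia, astrocytes, mature oligodendrocytes, neurons, choroid plexus, fibroblasts, red blood cells and leukocytes, drawn up from general knowledge. The members and the lists were chosen with earlier results of these data known. Genes listed beyond this rule are said to be so where they appear. The 22 pairs of libraries within groups had chi-square values per gene of 4.23 to 16.3, above counting error. None was therefore a second sequencing of the same library. Libraries made separately from the same mouse could also exceed counting error, so the check cannot show that each came from its own mouse. The test was checked on simulated counts for RCV against CTL. It recovered 53% of 100 genes changed 1.5-fold and 81% of 100 genes changed 2-fold. Of the genes it called, 2.9% had not been changed.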

Additional observations from a re-analysis of the deposited data

Results flagged for a closer look

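Pecam1 in CPZ 1 stood apart from the other CPZ libraries, at 22.2 CPM against 20.0 to 20.3 CPM. Its distance to the nearest of them was 0.883 of the range of the group, above Dixon's 95% critical value of 0.829 for 4 samples. Of 30 groups of 4 or 5 values examined in this way it was the 1 past the limit, and chance passes about 1 in 20.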

How the results depend on the processing

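The number of barrier genes called lower in RCV than in CTL was 1, and it was 0 with limma-voom, limma on log2(TPM + 1) with no filter, the replicate block, scaling to endothelial genes, the choroid plexus covariate and both RCV 3 and RCV 4 left out. Leaving out single libraries gave 0 to 1. Cldn5 remained between −0.76 and −0.60 throughout. Barrier genes called lower in CPZ than in CTL numbered 0, and 0 to 1 with single libraries left out. Those called higher in CPZ than in RCV numbered 0, but 1 with the DESeq2 Wald test, and 0 to 1 with single libraries left out. Genes of the vascular lists called lower in RCV than in CTL numbered 0, and 1 with the DESeq2 Wald test. Those called higher numbered 1, Aqp4, and 0 with limma-voom. Each of these counts for the vascular lists was the same in 2 further alternatives, the only others in which it was made. The Aqp4 call was lost in 8 of 9 fits with 1 library left out.

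Replicate numbers did not pair the libraries: the deviations of 12 same-numbered pairs correlated at −0.199 to 0.136, and 1 library correlated best with its own number. With the replicate block Cldn5 stood at −0.67 between RCV and CTL (adjusted p = 0.101), and the count was 0.

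Values near 0 changed sign between CPZ and CTL. Ocln was 0.002 with each of the 3 fits of TPM and with RCV 3 and RCV 4 left out, 0.014 with no count filter, 0.01 with at least 10 counts or only the 2 groups, and 0.073 with endothelial scaling. Flt1 was 0.022, 0.023 and 0.022 on log2(TPM + 1), log2(TPM + 0.1) and unfiltered log2(TPM + 1), 0.013 with no count filter, 0.009 with at least 10 counts or only the 2 groups, 0.074 with endothelial scaling and 0 with RCV 3 and RCV 4 left out. With single libraries left out, Ocln ran from −0.072 to 0.088, Flt1 from −0.035 to 0.029 and Slco1c1 from −0.026 to 0.148. Endothelial scaling gave 0.005 for Slc2a1 between CPZ and CTL, and 0.022 for Tjp1, 0.049 for Abcb1a and 0.007 for Cdh5 between RCV and CTL. The choroid plexus covariate gave −0.07 for Pecam1 between CPZ and RCV. The causes were not tested. The lowest range of counts among the barrier genes was that of Ocln, 43 to 83 per library.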

Other observations

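The genes whose log2-CPM was most correlated with that of Cldn5 itself over the 13 libraries were Rps6kc1 (Pearson r 0.96, and 0.88 with the group means removed), Dapk3 (0.92 and 0.71) and Kcnk12 (0.88 and 0.58), chosen after the values of Cldn5 were seen and given as a description.

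Markers of other cells were counted in the same way. Of 7 neuron markers and 10 choroid plexus markers 0 passed in any comparison, and the choroid plexus medians were 0.23 between CPZ and CTL, −1.01 between RCV and CTL and 1.35 between CPZ and RCV. Of 6 fibroblast markers 1 passed, Col1a1, which was lower in CPZ than in RCV (−1.89, adjusted p = 0.0396). This rests on few libraries: RCV ran from 6.32 to 36.4 CPM with a median of 9.36, the log2 fold change was −0.98 without RCV 1, and the call was lost without RCV 3 or any 1 of the CPZ libraries (adjusted p 0.0551 to 0.112). Of 5 red blood cell markers 2 were lower in CPZ than in RCV, Hba-a2 (−0.59) and Hbb-bt (−0.91), beside 1.88% of all genes, and all 5 had an unadjusted p under 0.05. Of the leukocyte markers, summing to 3.94 to 15.5 CPM in CTL, 26.1 to 43.1 in CPZ and 11.7 to 19.8 in RCV, Ptprc was the 1 tested, and it was called in all 3 comparisons, higher in CPZ than in CTL (3.05), in RCV than in CTL (1.57) and in CPZ than in RCV (1.48), at 3.81 ± 1.02 CPM in CTL (SD, n = 5), 31.3 ± 8.43 in CPZ and 11.3 ± 1.83 in RCV (SD, n = 4 each). It is also expressed by microglia.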
